A study of Homo sapiens with 24 samples.

Results

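The genes described here encode the proteins of the mitochondrial ribosome. They were chosen as the protein-coding genes whose symbol begins with MRPL or MRPS followed by a number and whose identifier stands in both count tables. Of the 58051 genes in those tables, 78 met the rule, 49 for the large subunit (MRPL) and 29 for the small subunit (MRPS). The study profiled the mRNA of 4 human cancer cell lines in 24 libraries, with 3 control and 3 Ocoxin libraries in each line. SW620 is a colorectal adenocarcinoma line (COAD), BxPC-3 a pancreatic adenocarcinoma line (PAAD), LNCaP a prostate adenocarcinoma line (PRAD) and HCC-70 a triple negative breast cancer line (TNBC). Ocoxin, a nutritional supplement made of green tea, licorice and cinnamon extracts with amino acids, vitamins and minerals, was given for 48 h at 1:700 in COAD and TNBC cells, 1:500 in PAAD cells and 1:50 in PRAD cells, close to the IC50 of each line. Treated cells were kept in RPMI-1640 with low serum, and RNA was taken from the cells that were still attached. Each cancer type is represented by 1 established line. The labels do not say whether replicates came from separate cultures, so the p-values measure the spread between these libraries.

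The mitochondrial ribosome sits in the mitochondrial matrix and makes only the few membrane proteins of the respiratory chain that the mitochondrial genome still encodes. All of its proteins are encoded in the nucleus, made by cytosolic ribosomes and imported, and they assemble on ribosomal RNAs transcribed from the mitochondrial genome. The small subunit binds the mRNA and reads it, and the large subunit forms the peptide bond and passes the chain to the inner membrane. Part of the proteins descend from bacterial ribosomal proteins, and the others were gained in the mitochondrial lineage. Genes of the set are commonly transcribed from housekeeping promoters with binding sites for ETS factors such as GABP, for NRF1 and for YY1.

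Library totals ran from 9063968 to 9520969 counts in PRAD and from 25160757 to 39009959 in the other lines. The median member had 505 counts per library in PRAD and between 1162 and 1635 in the other lines. Levels are counts scaled to a common library total (CPM) after TMM scaling within a line, and are not compared between lines because both tables were counted with different settings. Among the transcripts expected of the labelled lines, VIL1 stood at 526 CPM in COAD controls and KLK3 at 403 CPM in PRAD. KRT7 and KRT5 were high in both PAAD and TNBC, with KRT7 at 1051 and 672 CPM and KRT5 at 3133 and 1600 CPM. Among the markers listed for HCC-70, KRT17 was higher in PAAD (2344 CPM, against 262 in TNBC). KRT14 (23.8 CPM in PAAD and 101 in TNBC) and GABRP (1.35 and 42.6 CPM) were higher in TNBC. Of the receptors expected to be low in the triple negative line, PGR was at 0, as in COAD and PAAD, but ESR1 had 6.85 CPM and ERBB2 248 CPM. KRT20 (0.039 CPM) and LGALS4 (0.673 CPM) were low in the colorectal line, whereas CDX2 had 16.7 CPM, CDH17 12.2 CPM and EPCAM 400 CPM. The leukocyte marker PTPRC was at or below 0.11 CPM in every group. The summed leukocyte markers moved with Ocoxin in TNBC, from between 131 and 137 CPM in the controls to between 106 and 120, nearly all of it CD14, and their part in the results was not tested. The 37 genes of the mitochondrial genome hold 0 counts in these tables, so the mRNAs that the mitochondrial ribosome translates are not analysed here.

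All 78 members passed the filter on low counts in every line, but 4 of them were thin. MRPS24 had between 5 and 42 counts per library, and MRPL53 and MRPL38 stayed at or below 202. MRPL45 had 292, 246 and 8 counts in the COAD controls and 4, 300 and 2 after Ocoxin, and 6 in 1 PAAD Ocoxin library against at least 112 in the other PAAD libraries. No response can be read for MRPL45 in COAD, where its log2 fold change of -0.58 had a standard error (SE) of 1.77. Counting was done without strand, and 14 members share over 20% of their exonic bases with exons of other genes, led by MRPL12 with 68.2%.

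The control levels per kilobase of exonic length differed widely among members. They ran from 0.253 to 105 CPM per kb in COAD, from 0.107 to 73.5 in PAAD, from 0.607 to 63.0 in PRAD and from 0.339 to 101 in TNBC. MRPS34, a small subunit protein, had the highest level per length in PAAD (73.5 ± 8.95, SD, n = 3), PRAD (63.0 ± 8.10) and TNBC (101 ± 4.14). In COAD it stood second at 95.3 ± 5.25, after the large subunit protein MRPL51 at 105 ± 6.98. The lead of MRPS34 in PAAD was within the spread, since MRPL15 stood at 73.2 ± 1.36.

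Ocoxin was then compared with control in each line with edgeR's quasi-likelihood test, where a gene was called altered at a Benjamini-Hochberg adjusted p under 0.05 over all genes tested. This test was passed by 22 members in TNBC, 2 in PAAD, 1 in COAD and 0 in PRAD. Of the 78 members, 53 were called in no line, 25 in a single line, and none in more than 1 (in the fits without a replicate block). In TNBC cells 21 members fell and 1 rose, while 11.3% of all genes tested were called lower and 9.65% higher. Thus 26.9% of the members were called lower in TNBC. In PAAD cells both called members fell, against 3.62% of all genes called lower and 4.72% called higher. The 1 called member in COAD rose, where 1.09% of all genes were called lower and 1.47% higher. In PRAD cells 0.58% of all genes were called lower and 2.4% higher, and edgeR and DESeq2 called 0 members each. An unadjusted p under 0.05 was found for 8 members (10.3%) in PRAD, against 20.8% of all genes tested.

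**Figure D1:**
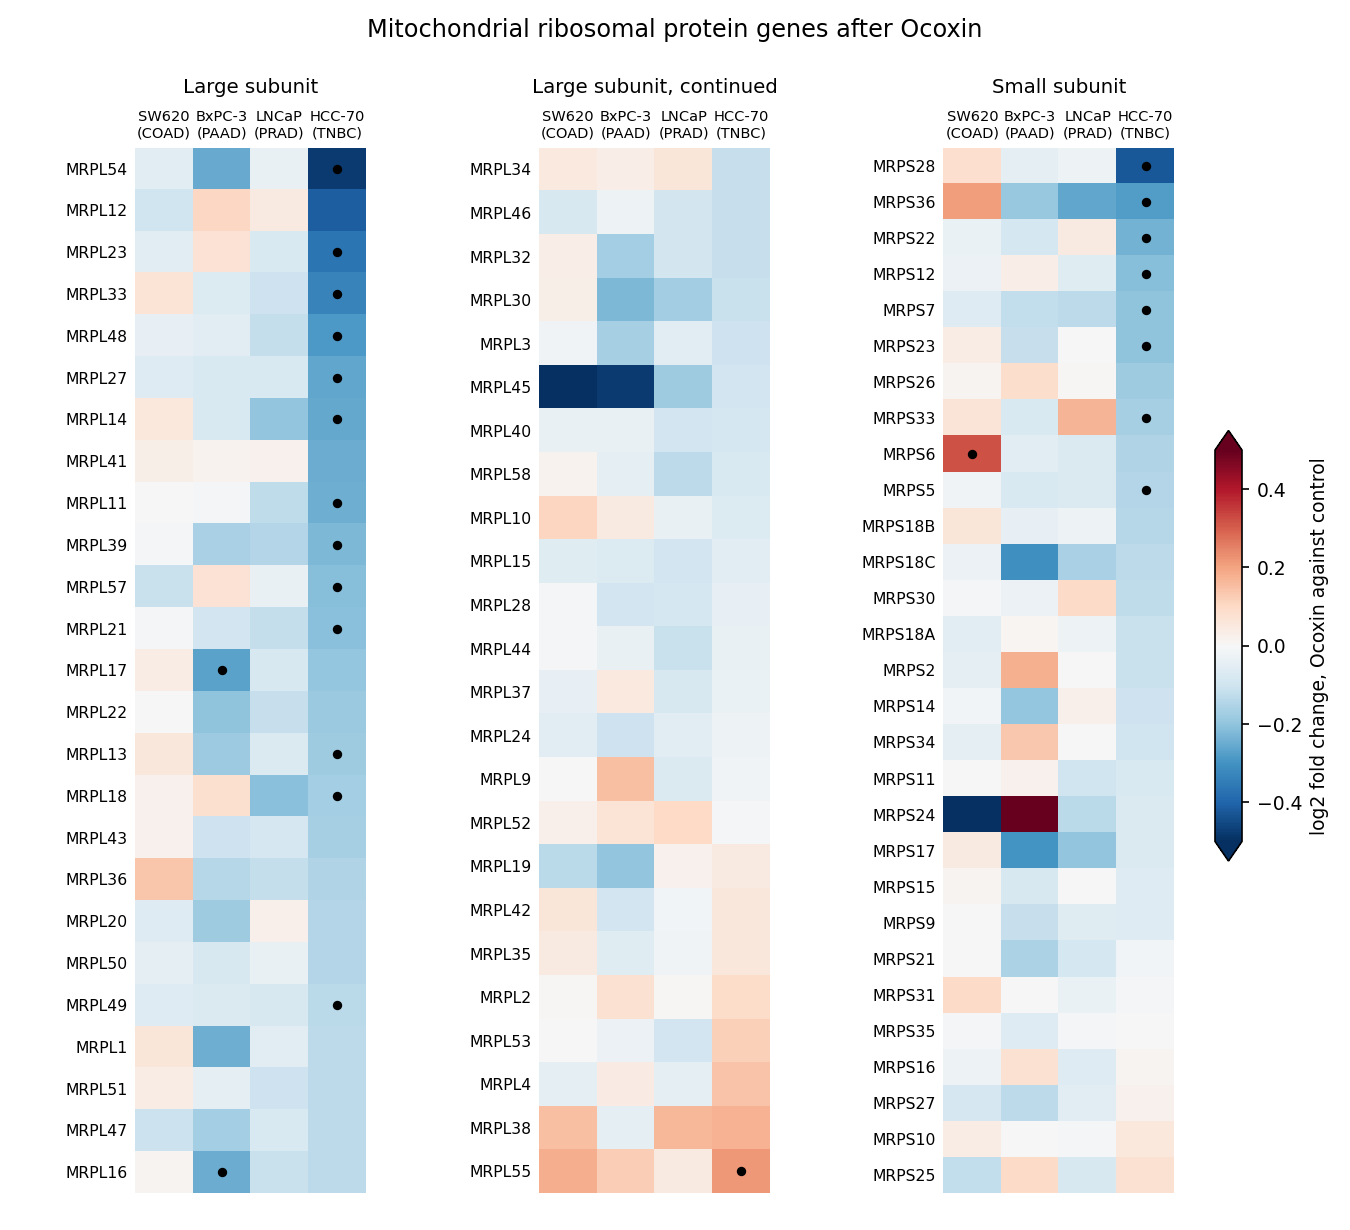
Log2 fold change of Ocoxin against control (color, cut at 0.5 in both directions) for 78 members (rows, ordered within each subunit by the TNBC value) in 4 cell lines (columns). Black dots mark an adjusted p under 0.05 (edgeR). The TNBC column holds 22 of the 25 dots.

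The replicate numbers in the titles tied control and Ocoxin libraries together in PAAD and PRAD. In TNBC this was less clear, since control 2 correlated at 0.33 with Ocoxin 2 and at 0.34 with another Ocoxin library. With the replicate number as a block in the edgeR fit, the called members were 37 lower and 2 higher in TNBC, 17 lower and 2 higher in PAAD, and 1 lower (MRPL18) in PRAD. Members were then called in more than 1 line, with 10 lower in both PAAD and TNBC (MRPL3, MRPL13, MRPL16, MRPL17, MRPL20, MRPL22, MRPL32, MRPL39, MRPL47 and MRPL54), MRPL18 lower in PRAD and TNBC, and MRPS34 higher in PAAD and lower in TNBC. Called lower with the block were 47.4% of the members in TNBC, 21.8% in PAAD and 1.28% in PRAD, against 17.6%, 11.04% and 2.69% of all genes. With this block the calls over all genes were 5878 in TNBC, 3998 in PAAD and 1451 in PRAD, against 3644, 1440 and 508 without it. After removal of the trend of the response with exonic length and GC content, 11 members (14.1%) were called lower in PRAD, against 10.7% of all genes, and over all genes the PRAD calls became 699 higher and 1818 lower, against 409 and 99 without the correction.

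The members as a whole lay below the other genes in 3 lines. The median log2 fold change of the members was -0.12 in TNBC, -0.07 in PRAD and -0.07 in PAAD, and -0.002 in COAD. Over all genes tested, these medians were 0.006, 0.009, 0.003 and -0.005. A log2 fold change below 0 was seen for 66 of the 78 members in TNBC, 63 in PRAD, 54 in PAAD and 41 in COAD, or 84.6%, 80.8%, 69.2% and 52.6%. For all genes tested, these shares were 49.0%, 47.6%, 49.4% and 51.4%.

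The same shift was visible library by library. Every Ocoxin library stood below every control library for 44 members in TNBC, against 19.8% of all genes tested. The corresponding numbers were 27 members in PRAD (12.4% of all genes), 19 in PAAD (13.9%) and 2 in COAD (10.4%). The summed CPM of the 78 members in TNBC was 3578, 3700 and 3569 in the controls and 3409, 3410 and 3371 after Ocoxin. These TNBC groups did not overlap, and the means differed by -6.05%. In PAAD the sum was 3625, 3438 and 3386 in the controls and 3339, 3362 and 3338 after Ocoxin. In PRAD it was 4477, 4658 and 4709 in the controls and 4448, 4451 and 4468 after Ocoxin. The groups did not overlap in PAAD or PRAD, but the lowest control lay close to the Ocoxin libraries. In COAD the sum was 5017, 5035 and 5407 in the controls and 4896, 5172 and 5374 after Ocoxin, and the groups overlapped.

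**Figure D2:**
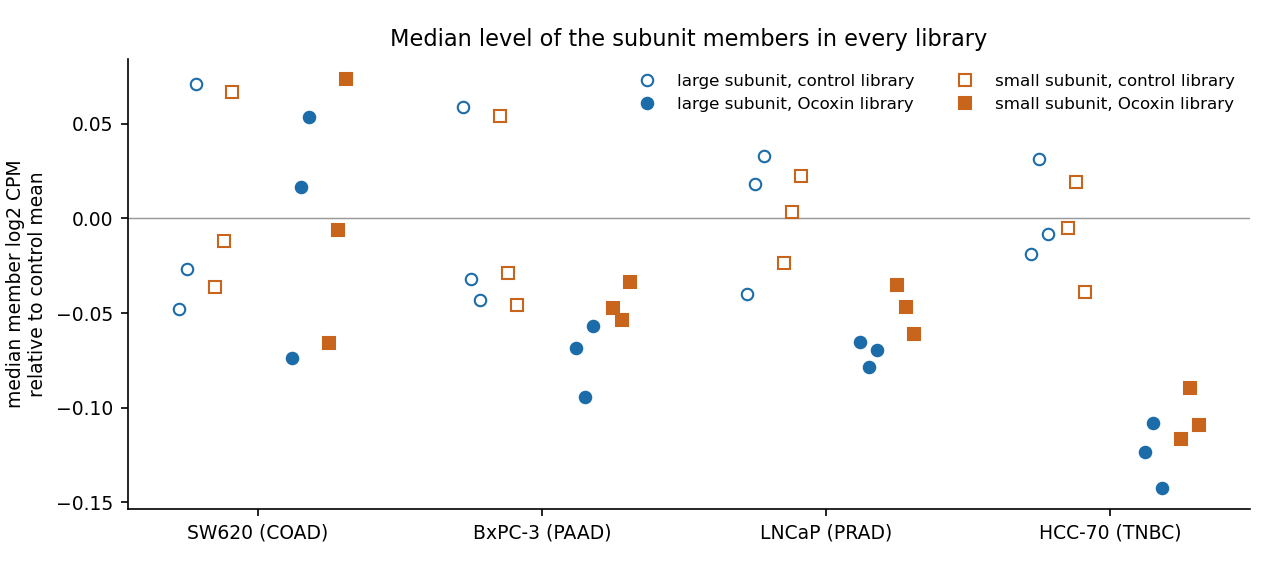
Median over the members of each subunit of log2 CPM relative to the control mean of each member (vertical axis), for every library of the 4 cell lines (horizontal axis). Open symbols are control libraries and filled symbols Ocoxin libraries, circles the large and squares the small subunit. The TNBC Ocoxin libraries lie between -0.143 and -0.090, below all TNBC controls, while COAD libraries of both groups are mixed.

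The members are described next by subunit in the line where most of them were called. In TNBC cells 13 large subunit members fell. MRPL54, a mitochondria-specific protein of the large subunit, had the lowest value of the set. Its level was 9.87, 12.1 and 11.4 CPM in the controls and 7.80, 8.23 and 7.86 CPM after Ocoxin, with no overlap. The log2 fold change of MRPL54 was -0.48 ± 0.10 (SE), which is -28.3%, with an edgeR adjusted p of 0.0051. MRPL33, a small protein with a bacterial counterpart, stood at 33.9, 32.0 and 30.8 CPM in the controls and 26.4, 24.7 and 25.7 CPM after Ocoxin. The groups were well apart, and the log2 fold change was -0.33 ± 0.06 (edgeR adjusted p = 0.0023). MRPL33 shares 21.1% of its exonic bases with BABAM2.

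MRPL48, a mitochondria-specific protein, had 31.0, 31.2 and 30.7 CPM in the TNBC controls and 24.02, 26.7 and 25.5 CPM after Ocoxin. Its controls were nearly equal, and the log2 fold change was -0.29 ± 0.06 (edgeR adjusted p = 0.0053). MRPL14, which lies at the face where both subunits meet, had 51.8, 53.9 and 54.2 CPM in the controls and 47.3, 43.6 and 42.9 CPM after Ocoxin. The first Ocoxin library was the closest to the controls, and the log2 fold change was -0.26 ± 0.05 (edgeR adjusted p = 0.0050). MRPL23 (-0.36 ± 0.11, edgeR adjusted p = 0.032), a protein near the end of the exit tunnel, had 12.6, 11.9 and 9.66 CPM in the controls and 9.47, 8.42 and 8.61 CPM after Ocoxin, so that 1 control lay close to the treated libraries. MRPL27 (-0.26 ± 0.07, edgeR adjusted p = 0.015) and MRPL11 (-0.25 ± 0.06, edgeR adjusted p = 0.010), both with bacterial kin, were also lower in each Ocoxin library than in each control. The other 6 large subunit members that fell were MRPL39, MRPL57, MRPL21, MRPL13, MRPL18 and MRPL49, with log2 fold changes from -0.22 to -0.13.

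The 1 member that rose in TNBC was MRPL55 of the large subunit. It had 33.5, 36.3 and 33.1 CPM in the controls and 41.1, 42.5 and 35.999 CPM after Ocoxin. The groups overlapped, since the lowest Ocoxin library lay below the highest control, and the log2 fold change was 0.22 ± 0.07 (edgeR adjusted p = 0.041). MRPL55 and MRPL2 were the only members with a value above 0 in all 4 lines.

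Of the small subunit members, 8 fell in TNBC. MRPS28 had the lowest value among them, at 6.21, 6.69 and 6.12 CPM in the controls and 4.87, 4.63 and 4.68 CPM after Ocoxin. The difference of -0.42 ± 0.11 (edgeR adjusted p = 0.018) was -25.4%, and 35.8% of the exonic bases of MRPS28 are shared with an unnamed gene. MRPS22, a mitochondria-specific protein, had 60.7, 59.3 and 56.9 CPM in the controls and 50.3, 50.8 and 49.3 CPM after Ocoxin. Both groups were tight, and the log2 fold change was -0.23 ± 0.05 (edgeR adjusted p = 0.0045). MRPS36 (-0.28 ± 0.09, edgeR adjusted p = 0.038) had 11.8, 13.5 and 12.1 CPM in the controls and 10.4, 10.1 and 10.3 CPM after Ocoxin. The remaining 5 were MRPS12, MRPS7, MRPS23, MRPS33 and MRPS5, with log2 fold changes from -0.21 to -0.15.

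Single libraries weighed on the TNBC count. It was 13 without control 1, 9 without control 2, 8 without Ocoxin 1 and 8 without Ocoxin 2, against 22 with all libraries. In the same order these are 16.7%, 11.54%, 10.3% and 10.3% of the members, while 14.9%, 12.9%, 12.9% and 13.1% of all genes were called, so that the share of the members was above that of all genes in the first of these fits and below it in the others. Called lower were 16.7%, 10.3%, 10.3% and 10.3% of the members, against 7.99%, 7.40%, 7.30% and 7.31% of all genes. The call was kept in all 6 fits without 1 library for 5 members, MRPL14, MRPL33, MRPL48, MRPL54 and MRPS22. At least a 1.2-fold change was found for 6 of the 22 called members, or 7.69% of all members, against 10.3% of all genes tested. All 6 fell, and 5.23% of all genes tested were called lower at this setting.

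**Figure D3:**
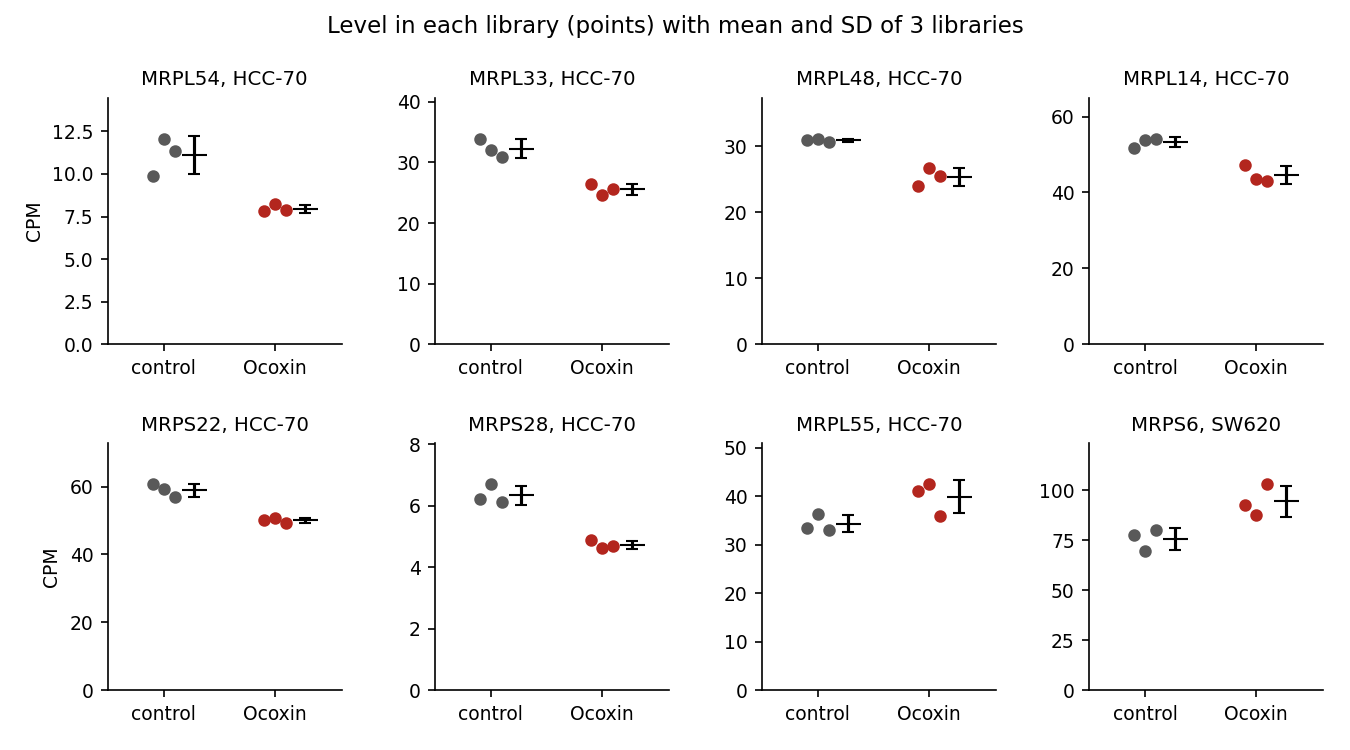
Level in CPM (vertical axis, from 0) of 8 members in the control and Ocoxin libraries of TNBC cells, and of COAD cells for MRPS6. Points are single libraries, and the bar beside them gives the mean and SD of 3 libraries. In the first 6 panels the Ocoxin libraries lie below all controls, MRPL55 overlaps, and MRPS6 lies above its controls.

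In PAAD cells the 2 called members were MRPL17 and MRPL16, both large subunit proteins with bacterial kin. MRPL17 lies near the polypeptide exit and MRPL16 close to the tRNA sites. MRPL17 had 49.9, 42.7 and 43.9 CPM in the controls and 36.9, 38.9 and 37.5 CPM after Ocoxin, a log2 fold change of -0.27 ± 0.07 (edgeR adjusted p = 0.033). MRPL16 had 62.9, 54.7 and 55.8 CPM in the controls and 49.1, 48.3 and 48.7 CPM after Ocoxin, a log2 fold change of -0.25 ± 0.07 (edgeR adjusted p = 0.035). For both genes control 1 was the highest library, and the groups did not overlap. Without control 1 the adjusted p was 0.13 for MRPL17, and without Ocoxin 2 it was 0.14 for MRPL16. Refits without 1 library called 0 members in PAAD without control 1, Ocoxin 1 or Ocoxin 2, 1 without control 2 or Ocoxin 3, and 4 without control 3. The members' share was at most 5.13% in these fits, and that of all genes ran from 3.64% to 9.77%. Across the members in PAAD, the response had a Spearman correlation of 0.49 with GC content (n = 78 genes of the same libraries), while this value was between -0.14 and 0.11 in the other lines.

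The lowest responses in PRAD cells belonged to MRPS36 and MRPL18. MRPL18, a protein also known to bind cytosolic ribosomal RNA, had 68.9, 71.4 and 68.6 CPM in the controls and 60.6, 61.6 and 58.4 CPM after Ocoxin. The groups were well apart, and the log2 fold change of -0.21 ± 0.05 had an edgeR adjusted p of 0.062, or 0.040 with the replicate block. MRPS36 stood at 15.7, 15.1 and 15.1 CPM in the controls and 13.04, 12.4 and 12.8 CPM after Ocoxin (-0.26 ± 0.09, edgeR adjusted p = 0.16). The highest PRAD value, 0.17 ± 0.06 for MRPS33, did not pass the test (edgeR adjusted p = 0.15), whereas MRPS33 fell in TNBC.

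In COAD cells the called member was MRPS6, a small subunit protein with a bacterial counterpart. It had 77.4, 69.6 and 80.0 CPM in the controls and 92.5, 87.6 and 103 CPM after Ocoxin. Each Ocoxin library was above each control, and the log2 fold change was 0.32 ± 0.06 (edgeR adjusted p = 0.010), which is 24.6%. Without control 2 the adjusted p was 0.092. MRPS6 shares 9.61% of its exonic bases with SLC5A3, the sodium and myo-inositol cotransporter gene that lies within it, and a further gene. SLC5A3 had log2 fold changes of 0.27 ± 0.17 in COAD (edgeR adjusted p = 0.54), 0.33 ± 0.08 in PAAD (0.016), 0.25 ± 0.07 in PRAD (0.12) and 0.26 ± 0.06 in TNBC (0.0059). MRPS6 itself had -0.15 in TNBC, -0.07 in PRAD and -0.05 in PAAD. The part of SLC5A3 reads in the MRPS6 value was not tested.

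Whether the response differed between the lines was tested in a joint fit of all 24 libraries. With edgeR 7 members (8.97%) passed this test, while 10.9% of all genes did, so the share of the members was not above that of all genes. These were MRPS6 (adjusted p = 0.0055), MRPS24 (0.020), MRPS36 (0.020), MRPL18 (0.023), MRPL54 (0.032), MRPL33 (0.034) and MRPL36 (0.048). With the replicate block 24 members passed (30.8%, against 23.3% of all genes). With at least 10 counts in every library, 13 of the 76 members then tested did (17.1%, against 21.9%).

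**Figure D4:**
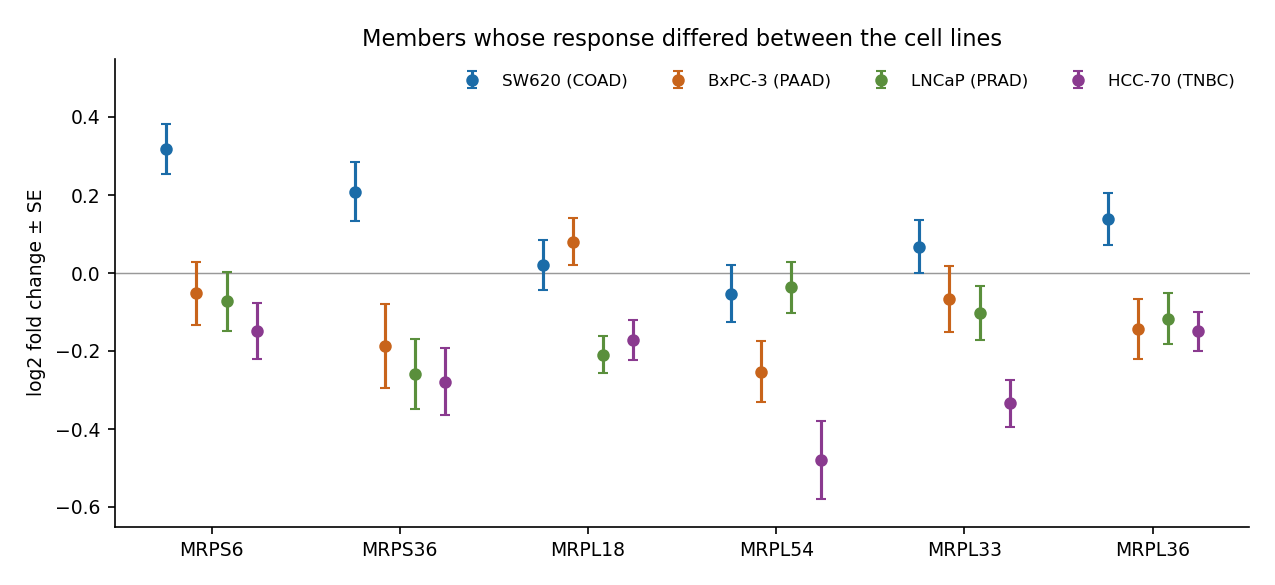
Log2 fold change of Ocoxin against control with its SE (vertical axis) in the 4 cell lines (colors) for 6 of the 7 members whose response differed between lines. MRPS24 is left out because of its few counts. COAD lies highest for MRPS6, MRPS36, MRPL33 and MRPL36, PAAD for MRPL18 and PRAD for MRPL54, while TNBC lies lowest for 5 of the 6.

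Pairs of lines were set against each other in the same fit. Of the 24631 genes tested for TNBC against COAD, 6.78% were called, 1009 lower in TNBC and 660 higher. The response in TNBC was lower than in COAD for 7 of the 78 members and higher for 0. These members were MRPS6 (difference of log2 fold changes -0.48 ± 0.11), MRPL33 (-0.41 ± 0.10), MRPS36 (-0.50 ± 0.13), MRPL54 (-0.44 ± 0.12), MRPL36 (-0.30 ± 0.09), MRPL14 (-0.32 ± 0.10) and MRPS28 (-0.52 ± 0.16), with edgeR adjusted p from 0.0036 to 0.043. COAD and TNBC cells received the same dilution. Against COAD, the PAAD response was lower for MRPS6 (-0.37 ± 0.10) and higher for MRPS24, while 3.44% of all genes were called. The PRAD response was lower than the PAAD response for MRPL18 (-0.32 ± 0.09), where 3.29% of all genes were called. In the other pairs edgeR called 0 members. In these, 0.832% of all genes were called for PRAD against COAD, 4.01% for TNBC against PAAD and 3.59% for TNBC against PRAD. At an unadjusted p under 0.05 there were 8 members for PRAD against COAD (10.3%, against 9.59% of all genes), 12 for TNBC against PAAD (15.4%, against 15.9%) and 6 for TNBC against PRAD (7.69%, against 14.7%). No other tool was run for these pairs. A response lower in TNBC than in COAD, called or not, was seen for 64 of the 78 members.

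MRPS24 differed between lines on few counts. It had 26, 22 and 16 counts in the COAD controls and 5, 6 and 5 after Ocoxin. In PAAD it had 6, 14 and 7 counts in the controls and 9, 22 and 19 after Ocoxin. Neither difference passed the test within its line (edgeR adjusted p = 0.051 and 0.31), and MRPS24 shares 23.2% of its exonic bases with the readthrough gene URGCP-MRPS24.

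The large and the small subunit were then set side by side. In TNBC 26.5% of the large and 27.6% of the small subunit members were called lower, and the median log2 fold changes were -0.13 and -0.11. The medians were -0.08 and -0.03 in PRAD, -0.07 and -0.05 in PAAD, and -0.002 and -0.004 in COAD. The large minus small difference was -0.047 in PRAD, -0.019 in TNBC, -0.016 in PAAD and 0.0025 in COAD. The SD of this difference between replicate libraries was 0.015, 0.018, 0.0082 and 0.017 in the same order. When MRPS30 and MRPS18A, which structures of the mitochondrial ribosome place in the large subunit, were counted there, the difference of the fold change medians was -0.026 in PRAD and -0.0039 in PAAD. No test was made on these medians. The SD is that of the library medians, so it does not measure the spread of the fold change differences.

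**Figure D5:**
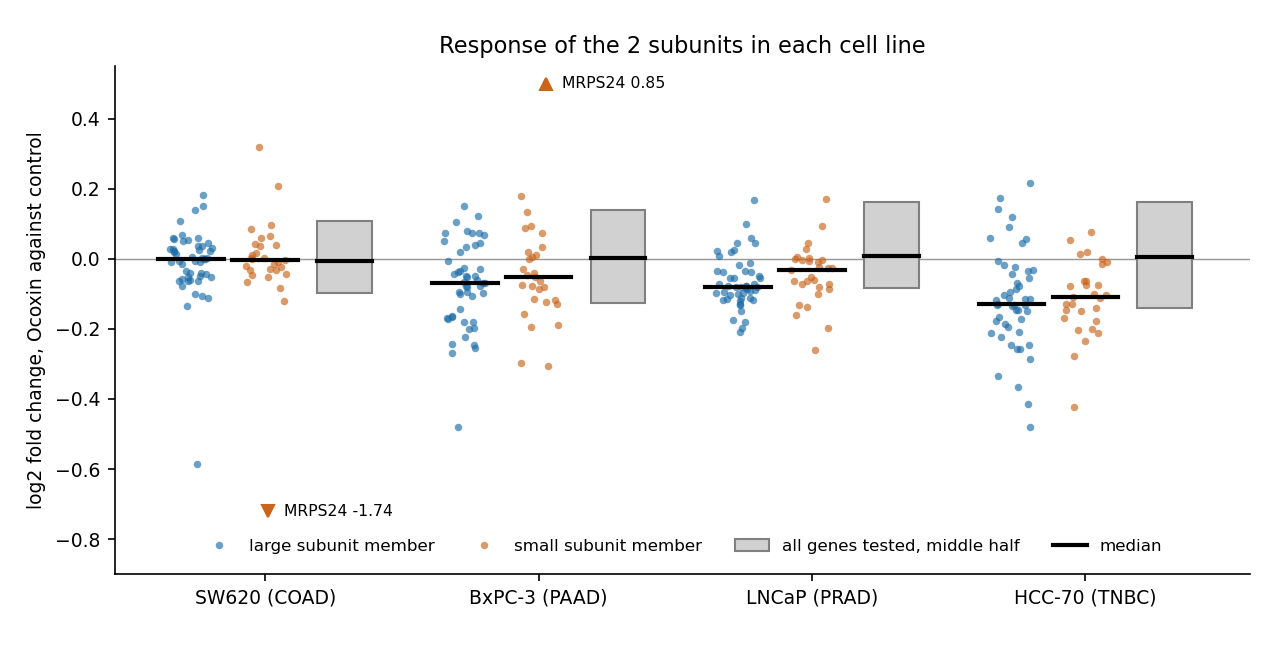
Log2 fold change of Ocoxin against control (vertical axis) for each large subunit member (blue) and small subunit member (orange) in the 4 cell lines, with the median as a black line. Gray boxes span the quartiles of all genes tested in that line, and triangles mark MRPS24 beyond the scale, at -1.74 in COAD and 0.85 in PAAD. In TNBC the subunit medians lie at -0.13 and -0.11, and the median of all genes at 0.006.

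The members were also divided by the descent of their proteins. By the usual numbering 47 members have bacterial kin and 31 are mitochondria-specific, where MRPL55 counts among the latter although RefSeq also names it bL31m. In TNBC 12 of the 47 (25.5%) and 9 of the 31 (29.0%) fell, with medians of -0.12 and -0.11. In PAAD 16 of the 47 (34.0%) and 2 of the 31 (6.45%) had an unadjusted p under 0.05, against 22.8% of all genes tested. The medians were -0.08 and -0.05 in PAAD and -0.07 and -0.04 in PRAD. Both called members of PAAD and the called member of COAD have bacterial kin. No test compared the classes.

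Some members have an unusual place in the ribosome. MRPS18A, MRPS18B and MRPS18C are paralogues that occupy different sites, and none of them passed the test in any line without the replicate block. Their log2 fold changes in TNBC were -0.11, -0.14 and -0.13. In PAAD, MRPS18C (-0.31 ± 0.10, edgeR adjusted p = 0.087) lay lower than MRPS18B (-0.04) and MRPS18A (0.01). With the replicate block MRPS18C had an edgeR adjusted p of 0.018 in PAAD, and MRPS18B 0.021 in TNBC. MRPS30 had 99.9, 99.0 and 98.2 CPM in the COAD controls and log2 fold changes between -0.13 and 0.09, none of which passed. MRPS36, which RefSeq names KGD4, is now known as a part of the α-ketoglutarate dehydrogenase complex rather than of the ribosome. Its value was 0.21 ± 0.08 in COAD (edgeR adjusted p = 0.16), -0.19 ± 0.11 in PAAD (0.32), -0.26 ± 0.09 in PRAD (0.16) and -0.28 ± 0.09 in TNBC (0.038). Its 5 annotated pseudogenes had 21.3% of its own level in the controls, averaged over lines, the highest such share among the 36 members with a pseudogene.

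Seen over all lines, 22 of the 78 members had a log2 fold change below 0 in all 4 lines, or 28.2%, against 10.5% of the 13341 genes tested in every line. In PAAD, PRAD and TNBC together 43 members did, or 55.1%, against 19.6% of all genes. The members were shorter than other genes, with a median exonic length of 2502 bases against 4566, and their median GC content of 48.5% equaled that of all genes. Within the members, the response had Spearman correlations with length between -0.13 and 0.15 in the 4 lines (n = 78 genes of the same libraries).

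Promoter sequence is shown for the 5 TNBC members that kept their call in all fits without 1 library and for MRPS6, to let the reader see what the region before a RefSeq start of these genes holds. Each line gives the 200 bases before the RefSeq transcript start (GRCh38.p14), on the strand of the gene. Capitals mark the letters searched on both strands, CCGGAAG for ETS factors, GCGCA and GCGC with 1 letter between them for NRF1, ATGGCGGC for YY1 and GGGCGG for SP1. For MRPL14 and MRPS22 the first listed of 3 windows is given.
MRPL14, chr6:44127309-44127508, minus strand: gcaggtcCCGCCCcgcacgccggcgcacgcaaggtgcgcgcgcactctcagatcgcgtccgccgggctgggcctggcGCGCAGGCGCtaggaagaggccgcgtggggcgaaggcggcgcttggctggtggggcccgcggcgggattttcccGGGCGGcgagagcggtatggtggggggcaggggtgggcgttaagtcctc
MRPL33, chr2:27771519-27771718, plus strand: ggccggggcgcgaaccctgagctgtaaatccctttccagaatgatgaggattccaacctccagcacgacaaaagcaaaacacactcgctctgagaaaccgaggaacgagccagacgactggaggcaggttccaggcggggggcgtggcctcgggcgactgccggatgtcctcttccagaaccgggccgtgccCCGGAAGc
MRPL48, chr11:73787674-73787873, plus strand: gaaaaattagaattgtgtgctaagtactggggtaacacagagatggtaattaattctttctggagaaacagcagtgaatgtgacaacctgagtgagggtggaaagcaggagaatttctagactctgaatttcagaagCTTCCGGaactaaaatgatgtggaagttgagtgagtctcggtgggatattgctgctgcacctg
MRPL54, chr19:3762482-3762681, plus strand: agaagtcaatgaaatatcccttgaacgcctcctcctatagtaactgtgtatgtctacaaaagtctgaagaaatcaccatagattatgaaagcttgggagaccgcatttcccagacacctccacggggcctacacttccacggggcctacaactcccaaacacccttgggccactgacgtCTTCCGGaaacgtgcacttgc
MRPS22, chr3:139343794-139343993, plus strand: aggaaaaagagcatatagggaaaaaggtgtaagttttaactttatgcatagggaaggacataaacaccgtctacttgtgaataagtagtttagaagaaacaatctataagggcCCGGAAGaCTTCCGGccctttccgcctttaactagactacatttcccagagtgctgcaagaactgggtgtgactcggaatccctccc
MRPS6, chr21:34073378-34073577, plus strand: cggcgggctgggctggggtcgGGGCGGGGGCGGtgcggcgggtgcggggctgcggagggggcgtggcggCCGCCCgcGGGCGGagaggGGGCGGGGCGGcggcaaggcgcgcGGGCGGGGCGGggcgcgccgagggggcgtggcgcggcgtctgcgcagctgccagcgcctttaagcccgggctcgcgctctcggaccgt

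The ETS letters stood before the RefSeq transcript start shown for 4 of the 5 genes that fell. They were found from 8 to 2 bases before the start of MRPL33, from 21 to 15 bases before MRPL54, from 63 to 57 bases before MRPL48, and on both strands between 87 and 73 bases before MRPS22. The MRPL14 stretch held the NRF1 letters and no ETS letters. The stretch before MRPS6 is built differently, with 85.5% GC and SP1 letters at 8 places, some overlapping, and RefSeq gives the same window to SLC5A3. In the counted annotation MRPL48 starts at 73787316, MRPS22 at 139005806 and MRPS6 at 34073224. MRPL33 starts at 27771717, MRPL54 at 3762664 and MRPL14, on the minus strand, at 44127457. The stretches shown for MRPL48, MRPS22 and MRPS6 thus lie inside the genes as counted. That of MRPL14 lies mostly inside, with its NRF1 letters. Those of MRPL33 and MRPL54 overlap the starts of their counted genes, in both cases at the ETS letters.

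A window was found for 69 of the 78 members, and MRPL2, MRPL10, MRPL13, MRPL15, MRPL21, MRPL23, MRPL35, MRPS28 and MRPS36 had none. In windows of 300 bases (250 before the start and 50 after it), the ETS letters were in 38.8% of 85 member windows and in 10.3% of 35116 windows of all genes. The YY1 letters were in 23.5% and 2.996%, the NRF1 letters in 11.8% and 5.78%, and the SP1 letters in 60.0% and 45.0%. The member windows had a median of 23 CG dinucleotides, against 14 in all windows, and a median GC content of 60.3%, against 58.7%. The part of this composition in the shares was not tested. Of the 16 genes with a window that fell in TNBC, 9 held the ETS letters, 3 the NRF1 letters, 8 the SP1 letters and 0 the YY1 letters. Among all 69 members these numbers were 30, 9, 42 and 19. Large and small subunit genes were alike in the ETS letters, at 18 of 42 and 12 of 27. A match is a run of letters and does not show that a factor was bound.

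The other genes of the pathway are given from lists set with the design. The list of 5 further proteins of the ribosome that carry other names had 2 genes that fell in TNBC, GADD45GIP1 (-0.31 ± 0.07, edgeR adjusted p = 0.011) of the large and AURKAIP1 (-0.20 ± 0.06, edgeR adjusted p = 0.039) of the small subunit. The median of these 5 in TNBC was -0.20, and edgeR called 0 of them in the other lines, where 1, 2 and 0 had an unadjusted p under 0.05 in COAD, PAAD and PRAD and DESeq2 called 1, 0 and 0. With the replicate block 3 fell in TNBC and 2 in PAAD. The 26 assembly factors, which build the ribosome and modify its RNA, had a TNBC median of -0.03. ERAL1, a chaperone of the small subunit RNA, rose in TNBC (0.16 ± 0.05, edgeR adjusted p = 0.032) and NDUFAB1, the mitochondrial acyl carrier protein, fell (-0.19 ± 0.04, edgeR adjusted p = 0.0088). MTG1, a GTPase of the large subunit, rose in PAAD from 2.58 to 4.02 CPM (edgeR adjusted p = 0.026).

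Genes that act on or beside the ribosome had TNBC medians above 0, and medians below 0 in the other lines. The 20 translation factors had a TNBC median of 0.02, and 1 was called, OXA1L, the insertase that receives the new chains (0.15 ± 0.04, edgeR adjusted p = 0.014). The 13 genes of mitochondrial transcription and RNA processing had a median of 0.05, with TWNK higher (0.23 ± 0.07, edgeR adjusted p = 0.040) and HSD17B10 lower (-0.18 ± 0.05, edgeR adjusted p = 0.022). TWNK, the mitochondrial DNA helicase, shares exonic bases with MRPL43. TRMT10C, a subunit of mitochondrial RNase P, fell in PAAD (-0.22 ± 0.06, edgeR adjusted p = 0.028). The 17 mitochondrial aminoacyl-tRNA synthetases, which charge the tRNAs that the ribosome uses, had a TNBC median of 0.06. TARS2 rose (0.23 ± 0.05) and EARS2 fell (-0.16 ± 0.05) in TNBC, IARS2 fell in PAAD (-0.22 ± 0.05), and FARS2 rose in COAD (0.35 ± 0.08), with edgeR adjusted p from 0.0039 to 0.033. In PRAD the medians of the translation, transcription and synthetase lists were -0.04, -0.07 and -0.06, beside -0.07 for the members. The PAAD medians were -0.05, -0.03 and -0.04, beside -0.07. The COAD medians were -0.03, -0.04 and -0.05, beside -0.002.

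The cytosolic ribosome and the respiratory chain gave the nearest comparison. Of 82 cytosolic ribosomal protein genes tested in TNBC, 35 fell and 1 rose, with a median of -0.12, and 45 of 80 nuclear genes for respiratory chain subunits fell, with a median of -0.18. Over all genes tested in TNBC, 11.3% were called lower, or 17.6% with the replicate block. With the replicate block 56 cytosolic ribosomal genes and 49 respiratory chain genes fell in TNBC. The largest TNBC fold among the latter was that of COX7A2, a subunit of cytochrome c oxidase (-0.55 ± 0.05, edgeR adjusted p = 3.12e-05), and RPL34 (-0.29 ± 0.05), RPS28 (-0.27 ± 0.07) and RPL27 (-0.27 ± 0.04) led the cytosolic genes. In PAAD 8 of 81 cytosolic and 9 of 81 respiratory chain genes fell (59 and 33 with the replicate block), with medians of -0.14 and -0.11, among them RPS3A (-0.35 ± 0.07) and ATP5F1C (-0.27 ± 0.06). Of all genes tested in PAAD, 3.62% were called lower, or 11.04% with the replicate block. In COAD the medians were 0.10 and 0.02, and RPL36A fell (-0.48 ± 0.10), whereas RPL36A rose in TNBC (0.81 ± 0.16). In PRAD the medians were -0.05 for both lists, and edgeR called 0 genes of either, with 8 and 7 at an unadjusted p under 0.05, while DESeq2 called 0 and 1.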

How the data were processed

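The libraries were polyA-selected and stranded. After trimming (fastp), alignment to hg38 (STAR) and removal of duplicates (picard), the authors counted reads on exons with featureCounts 2.0.3. Per the file headers, the values are raw counts per gene, with no normalization. Strand was not used, reads shared by several genes were dropped, the PRAD table was counted without the paired-end option, and a fragment can give more than 1 count in the other table. The annotation release is not given in the sources used here. Of 58051 identifiers, 56948 matched a symbol, and gene types came from GENCODE. Libraries were grouped by title, since the labels give the dilution for controls as well.

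Counts were filtered (filterByExpr), scaled by TMM and tested within each line with edgeR 4.0.16 (quasi-likelihood, robust) and Benjamini-Hochberg adjustment over all genes tested, in R 4.3.3, and the difference between lines in a joint fit. The tests were run first on simulated data. Alternatives were DESeq2 1.42.0 (or its size factors), no filter or at least 10 counts, protein-coding genes, a joint fit, halved counts, stricter thresholds, a replicate block, removal of the length and GC trend, and leaving out each library. Same-numbered control and Ocoxin libraries deviated together (correlation over genes from 0.18 to 0.63) in PAAD, PRAD and TNBC. For TNBC replicate 2 this correlation (0.33) was not above that with another number (0.34). In COAD replicates 1 and 3 deviated together (0.38 and 0.49), but replicate 2 did not (0.07, against 0.40 with another number). CPM use the TMM-scaled totals. Precision is limited by 3 libraries per group, and intervals are SE of the fit. Replicate libraries differed by more than sampling noise. Sequences are from RefSeq (GRCh38.p14). Named are called members with the largest fold (up to 10 per direction and line), members past the test between lines, MRPS18A to MRPS18C, MRPS30 and MRPS36, and up to 3 called genes per direction of other lists. An item that this rule would name is not reported here. MRPS33 in PRAD, SLC5A3, MRPL2 and the thin members were named after their values were seen. The members and lists were chosen with earlier results of these data known.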

Additional observations from a re-analysis of the deposited data

Results flagged for a closer look

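The response to Ocoxin differed between the 4 cell lines for 7 members by the edgeR test of the interaction over 24 libraries. This is 8.97% of the members, against 10.9% of all genes tested. The adjusted p was 0.0055 for MRPS6, which was higher in 3 of 3 Ocoxin libraries than in any control in COAD and below 0 on the log2 scale in the other lines. It was 0.020 for MRPS24, a thin gene, and 0.020 for MRPS36, with a log2 fold change above 0 in COAD and below 0 in the other lines. The values were 0.023 for MRPL18, 0.032 for MRPL54, 0.034 for MRPL33 and 0.048 for MRPL36. MRPL18 had values of 0.02 and 0.08 in COAD and PAAD and of -0.21 and -0.17 in PRAD and TNBC. With DESeq2 size factors all 7 passed as well, and with COAD, PAAD and TNBC alone MRPL18 and MRPL54 did not pass.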

How the results depend on the processing

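The number of altered members depended on the settings more than their median did. With an adjusted p under 0.01 it was 0 in COAD, 0 in PAAD and 5 in TNBC, and with at least a 1.2-fold change 1 in PAAD and 6 in TNBC. These are 6.41% and 7.69% of the members in TNBC, against 10.2% and 10.3% of all genes tested. All of these TNBC members fell, and 5.76% and 5.23% of all genes tested were called lower. In COAD it was 2 without a filter on low counts, among protein-coding genes, in the joint fit and with the length and GC trend removed. Each time this was 2.56% of the members, against 2.36%, 3.64%, 1.17% and 3.81% of all genes in the same order. In PAAD the number was 4 among protein-coding genes, 6 in the joint fit and 5 with the trend removed. These are 5.13%, 7.69% and 6.41% of the members, against 10.6%, 6.91% and 14.1% of all genes. In PRAD the number was 1 without a filter and 1 in the joint fit, and 11 with the trend removed. The shares were 1.28%, 1.28% and 14.1% of the members, against 3.28%, 4.05% and 14.7% of all genes. With the replicate block it was 39 in TNBC, 1 in PRAD, 19 in PAAD and 3 in COAD (where the numbers did not pair), and with the block and trend removal together 35, 33, 9 and 7. The latter are 44.9%, 42.3%, 11.54% and 8.97% of the members, against 33.0%, 32.7%, 19.4% and 14.5% of all genes. Leaving out 1 library gave 0 to 2 in COAD, 0 to 4 in PAAD, 0 in each PRAD fit and 8 to 24 in TNBC. The members' share was at most 2.56% in COAD and 5.13% in PAAD, and from 10.3% to 30.8% in TNBC. All-gene shares were 0.669% to 4.33% in COAD, 3.64% to 9.77% in PAAD and 0.0173% to 2.28% in PRAD. In TNBC they were 12.9% to 21.8%. In COAD 0 were left without control 2.

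The median log2 fold change of the members in PRAD was -0.10 in the joint fit and -0.14 with the trend removed, with or without the block, and it stayed within its spread in the other lines. Over all genes the PRAD median was 0.009 in the main fit and 0 in the joint fit. With the trend removed the all-gene median was -0.061, with or without the block. The large minus small difference was -0.040 with the trend removed in PAAD and -0.041 with the block as well, -0.0039 in PAAD and -0.026 in PRAD with MRPS30 and MRPS18A in the large subunit, and without 1 library from -0.0013 to 0.026 in COAD, -0.044 to 0.013 in PAAD, -0.042 to -0.022 in PRAD and -0.039 to -0.00011 in TNBC. The number of members that differed between lines was 13 with at least 10 counts in every library (17.1%, against 21.9% of all genes) and 24 with the block (30.8%, against 23.3%). The causes were not tested. For single members, 356 of the refitted values kept their call, 121 lost it and none turned direction. PRAD was the shallowest line, with at most 9520969 counts per library.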

Other observations

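Among 9 regulators that are known to act on genes of the mitochondrial ribosome, 3 rose in TNBC and 0 fell by edgeR (DESeq2 called 1 lower, and 5 had an unadjusted p under 0.05). Over all genes tested in TNBC, 9.65% were called higher and 11.3% lower. PPARGC1A, a coactivator of mitochondrial biogenesis, rose from 12.8 ± 0.628 to 18.7 ± 2.69 CPM (SD, n = 3, log2 fold change 0.55 ± 0.10, edgeR adjusted p = 0.0024). PPRC1, a coactivator of the same family, had a log2 fold change of 0.24 ± 0.05 (edgeR adjusted p = 0.0059), and MYC 0.29 ± 0.05 (edgeR adjusted p = 0.00092). In PAAD, MYC (0.32 ± 0.07, edgeR adjusted p = 0.0082) and PPARGC1B (0.27 ± 0.08, edgeR adjusted p = 0.037) rose, where 4.72% of all genes tested were called higher.

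Of 10 genes of mitochondrial stress and protein quality control, DDIT3, a transcription factor of the integrated stress response, rose in PRAD (0.74 ± 0.13, edgeR adjusted p = 0.033) and in TNBC (0.45 ± 0.08, edgeR adjusted p = 0.0019). ATF5 rose in PAAD (0.30 ± 0.06, edgeR adjusted p = 0.0074). In TNBC the matrix chaperone HSPA9 rose (0.17 ± 0.05) and HSPE1, the cochaperone of the matrix chaperonin, fell (-0.30 ± 0.08), with edgeR adjusted p of 0.020 and 0.022. Of all genes tested, 9.65% were called higher in TNBC, 4.72% in PAAD and 2.4% in PRAD, and 11.3% were called lower in TNBC.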
